A study of Mus musculus with 12 samples.

Results

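The Egr and Nr4a families were examined across the 4 treatment groups of the study: Egr1, Egr2, Egr3 and Egr4, and Nr4a1, Nr4a2 and Nr4a3. A probe set was taken where its only gene symbol in the platform annotation was 1 of these names, and all 7 genes were found among the 19938 genes with a symbol of their own. Each was measured by 1 probe set, numbered 10454782 for Egr1, 10363735 for Egr2, 10416251 for Egr3, 10545859 for Egr4, 10427035 for Nr4a1, 10482772 for Nr4a2 and 10504838 for Nr4a3. All mice were adolescent males of the outbred Swiss CD-1 stock and went through a conditioned place preference procedure of 10 days, in which an animal learns to associate a compartment with a drug. The groups were given saline, ethanol, mephedrone (a synthetic cathinone stimulant) or mephedrone together with ethanol, here called the combination, 15 minutes before they entered the paired compartment. Total RNA of the anterior striatum, a brain region of reward and habit learning, was hybridised to 3 Affymetrix arrays per group, 12 in all. The labels give no dose, no hour of collection and no array batch. They do not say that the arrays of a group hold separate animals, so each p-value reflects only how far these samples spread, and that spread may be technical. The number of arrays limits the precision.

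Egr proteins are zinc finger transcription factors that bind GC-rich sites, and Nr4a proteins are orphan nuclear receptors that act without a known natural ligand. Genes of both families are immediate early genes, switched on by synaptic activity, calcium and growth factors through kinases that act on transcription factors such as CREB and SRF. In the striatum Egr1 and Nr4a1 are well-known reporters of dopamine receptor signalling, whereas Nr4a2 is best known for its role in midbrain dopamine neurons and is also found in the claustrum and deep cortex. In bulk tissue, fewer cells of a type and less RNA per cell cannot be told apart.

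The promoters of 5 of the 7 genes are shown, since CREB and SRF act on genes of this kind. Those of Egr1 and Egr3 are not shown, so their sites are not described. Whether the sites bear on the values in the arrays was not tested. Each line gives 250 bases before the transcription start, from RefSeq on mouse build GRCm38.p6, on the strand of the gene. Capitals mark the core of the CREB site, TGACG on either strand, the CArG box bound by SRF, and the Egr site, GCGTGGGCG or GCGGGGGCG on either strand. The lines are Egr2 at chr10:67537619-67537868 on the plus strand, Egr4 at chr6:85513590-85513839 on the minus strand, Nr4a1 at chr15:101266596-101266845 on the plus strand, Nr4a2 at chr2:57124004-57124253 on the minus strand, and Nr4a3 at chr4:48045055-48045304 on the plus strand.
Egr2: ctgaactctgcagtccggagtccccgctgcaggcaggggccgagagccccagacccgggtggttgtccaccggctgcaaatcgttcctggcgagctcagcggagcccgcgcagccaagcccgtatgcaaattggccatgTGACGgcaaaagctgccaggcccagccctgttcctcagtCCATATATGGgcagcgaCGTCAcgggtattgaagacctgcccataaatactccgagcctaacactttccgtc
Egr4: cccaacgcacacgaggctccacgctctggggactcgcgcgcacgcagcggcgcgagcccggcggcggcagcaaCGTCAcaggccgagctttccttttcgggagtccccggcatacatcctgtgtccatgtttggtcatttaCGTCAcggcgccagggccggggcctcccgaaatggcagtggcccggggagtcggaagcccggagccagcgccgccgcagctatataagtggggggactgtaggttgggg
Nr4a1: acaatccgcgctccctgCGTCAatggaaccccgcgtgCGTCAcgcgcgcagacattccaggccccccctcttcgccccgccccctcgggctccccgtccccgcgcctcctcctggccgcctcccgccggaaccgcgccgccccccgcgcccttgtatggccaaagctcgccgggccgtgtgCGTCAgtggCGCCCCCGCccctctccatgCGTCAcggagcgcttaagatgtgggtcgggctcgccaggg
Nr4a2: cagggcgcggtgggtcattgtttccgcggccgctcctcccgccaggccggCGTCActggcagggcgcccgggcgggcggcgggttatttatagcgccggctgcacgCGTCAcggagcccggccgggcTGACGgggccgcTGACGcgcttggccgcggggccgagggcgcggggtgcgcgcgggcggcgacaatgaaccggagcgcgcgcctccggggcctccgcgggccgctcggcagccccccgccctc
Nr4a3: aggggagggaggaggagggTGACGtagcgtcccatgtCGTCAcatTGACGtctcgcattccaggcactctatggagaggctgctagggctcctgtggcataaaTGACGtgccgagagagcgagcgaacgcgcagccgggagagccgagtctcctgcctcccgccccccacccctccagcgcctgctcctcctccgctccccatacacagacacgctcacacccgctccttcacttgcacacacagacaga

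The CREB core occurred 4 times in each of the Nr4a promoters shown and 2 times in those shown for Egr2 and Egr4. Of 32851 promoter windows of the same length, 17.8% held the core at least once, 3.9% held it at least 2 times and 0.137% at least 4 times. A CArG box lay in the Egr2 window, 72 to 63 bases before the start, and in 1.47% of all windows. An Egr site lay 60 to 52 bases before the start of Nr4a1 and in 3.06% of all windows. Egr2 has 5 annotated starts, and 1 of the 3 windows with both kinds of site is shown, chosen for those sites, so its matches are not to be read against the shares of all windows. Of the 2 windows without both, 1 held a CArG box and 0 CREB cores, and the other held neither. Neither the full CREB site TGACGTCA, found in 1.55% of all windows, nor the Nr4a site AAAGGTCA, found in 1.34%, was in these 5 windows. G and C made up 61.6% of the Egr2 window, 68% of Egr4, 74.4% of Nr4a1, 80% of Nr4a2 and 63.6% of Nr4a3. The shares of all windows were not matched for this content. A match describes the letters only.

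Values are log2 differences from the median of a gene over the 12 arrays, so a level can be compared between arrays but not between genes. In the deposited numbers all 7 members had the rounding steps of signals between 8 and 16 in log2 before the values were centred. Of 10 markers of striatal projection neurons 8 were measured, and all 8 had the same kind of step. Combination replicate 3 stood apart in marker genes of other tissue, with list means of 1.70 for the choroid plexus, 0.64 for cortical excitatory neurons and -0.32 for striatal projection neurons. Differences between groups in the members that moved by over 1.5 times when it was left out are given both ways where they are printed. Group means and the values of marker lists are given only with it included. Saline replicate 1 stood apart from the other saline arrays in the members themselves, as the values below show.

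Egr1, a factor needed for lasting synaptic change, had values of 0.50, -0.048 and 0.024 in the saline arrays and 0.37, 0.35 and 0.42 in the ethanol arrays. The mephedrone arrays had -0.062, -0.0044 and -0.00035, and the combination arrays -0.084, 0.00035 and -0.17. The 3 ethanol arrays and saline replicate 1 were thus high, and the other 8 arrays lay close together. Group means ± SD (n = 3) were 0.16 ± 0.30 for saline, 0.38 ± 0.037 for ethanol, -0.022 ± 0.035 for mephedrone and -0.084 ± 0.084 for the combination.

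Egr2, also called Krox20 and known for its role in myelinating Schwann cells and in the hindbrain, had saline values of 0.89, -0.017 and 0.0038 and ethanol values of 0.87, 0.95 and 0.95. Mephedrone values were -0.038, -0.0038 and 0.26, and combination values -0.0038, -0.0072 and -0.42. The same 4 arrays were high, with 0.61 between the lowest of them and the highest of the other 8. The ethanol mean of 0.92 ± 0.048 (SD, n = 3) was the highest and the combination mean of -0.14 ± 0.24 the lowest.

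Egr4, a factor studied mainly in neurons and germ cells, showed the pattern at a smaller scale. Saline arrays had 0.42, -0.15 and -0.0055, and ethanol arrays 0.36, 0.36 and 0.34. Mephedrone arrays had -0.17, -0.076 and 0.014, and combination arrays -0.12, 0.0055 and -0.35. Again the ethanol arrays and saline replicate 1 lay above the rest, with a gap of 0.32. The ethanol arrays were tightly grouped, with a mean of 0.35 ± 0.013 (SD, n = 3).

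Egr3, which is induced by neuregulin and neurotrophins and is needed for muscle spindles, followed another course. Saline values were 0.21, 0.13 and 0.029 and ethanol values 0.0086, 0.15 and 0.15. Mephedrone values were -0.21, -0.0086 and -0.15, and combination values -0.11, -0.18 and -0.31. All 6 arrays without mephedrone were above 0 and all 6 arrays with it were below 0, by small amounts on both sides of the median. The saline and ethanol means were 0.12 ± 0.089 and 0.10 ± 0.08 (SD, n = 3), against -0.12 ± 0.10 for mephedrone and -0.20 ± 0.10 for the combination.

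**Figure D1:**
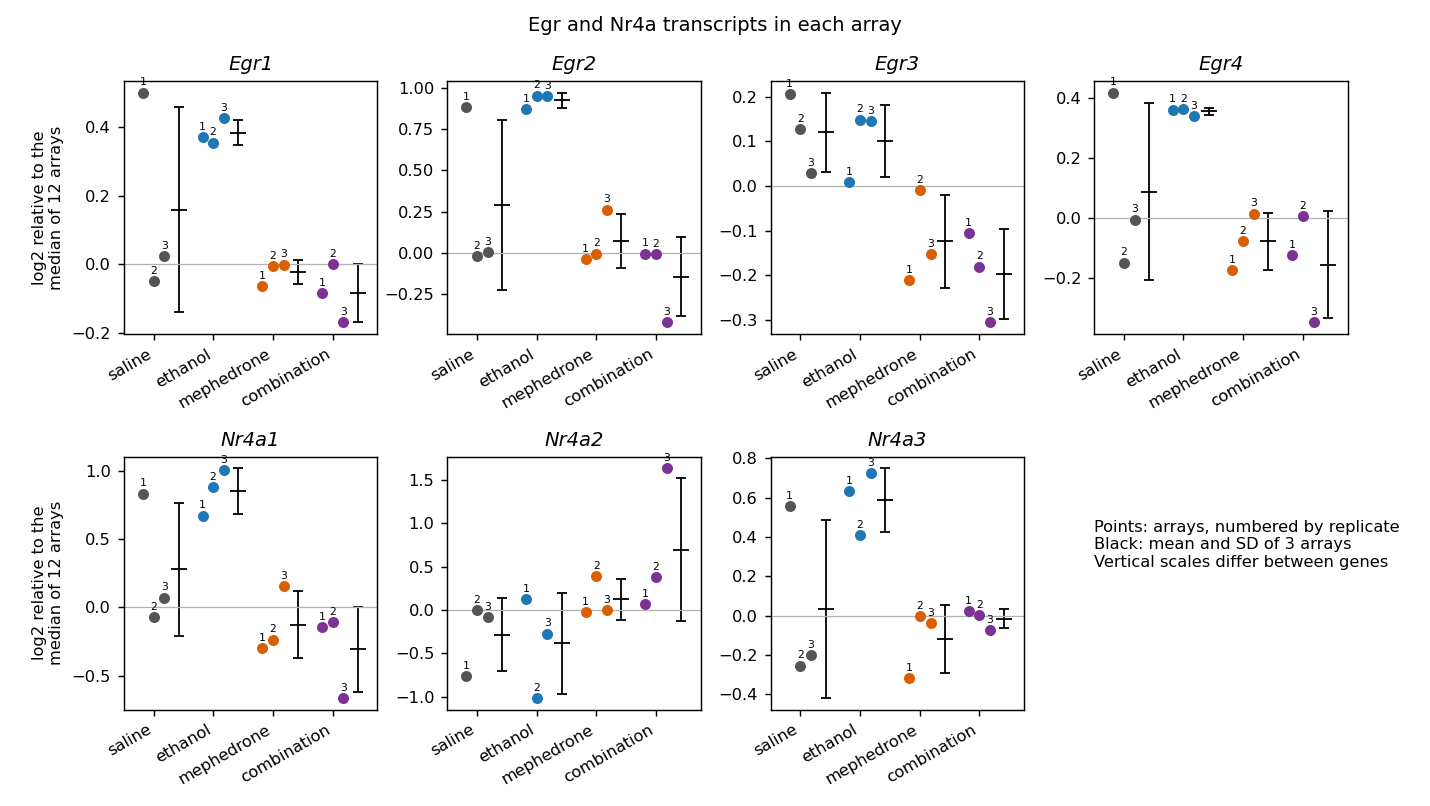
Each panel plots 1 gene, with the log2 value relative to the median of 12 arrays on the vertical axis and the 4 groups on the horizontal axis; points are arrays numbered by replicate, and the black bar is the mean and SD of 3 arrays. Saline replicate 1 sits with the ethanol arrays for Egr1, Egr2, Egr4, Nr4a1 and Nr4a3, while Nr4a2 is highest in combination replicate 3, at 1.63.

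Nr4a1, also called Nur77, was another member with the ethanol arrays and saline replicate 1 high. Of the members with these high arrays it had the widest range, 1.66 from lowest to highest array. The saline arrays read 0.83, -0.071 and 0.071 and the ethanol arrays 0.67, 0.88 and 1.00. The mephedrone arrays read -0.30, -0.24 and 0.16, and the combination arrays -0.15, -0.11 and -0.66. The lowest of the 4 high arrays lay 0.51 above the highest of the others. Means ± SD (n = 3) ran from 0.85 ± 0.17 for ethanol through 0.28 ± 0.49 for saline and -0.13 ± 0.25 for mephedrone to -0.31 ± 0.31 for the combination.

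Nr4a3, also called NOR1, had saline values of 0.56, -0.26 and -0.20 and ethanol values of 0.63, 0.41 and 0.72. Its mephedrone values were -0.32, -0.0023 and -0.038, and its combination values 0.024, 0.0023 and -0.072. The ethanol arrays and saline replicate 1 were high once more, but saline replicates 2 and 3 were as low as the mephedrone arrays. The combination mean of -0.015 ± 0.051 (SD, n = 3) lay between those of saline, 0.033 ± 0.45, and mephedrone, -0.12 ± 0.17.

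Nr4a2, also called Nurr1, ran the other way. Its saline arrays had -0.77, 0.0019 and -0.086, and its ethanol arrays 0.13, -1.01 and -0.27. The mephedrone arrays had -0.022, 0.40 and -0.0019, and the combination arrays 0.072, 0.38 and 1.63. Its 2 lowest arrays were ethanol replicate 2 and saline replicate 1, and combination replicate 3 exceeded all others by 1.24. The combination mean of 0.70 ± 0.83 (SD, n = 3) includes that array, and the ethanol mean was -0.39 ± 0.58.

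In 5 of the 7 members (Egr1, Egr2, Egr4, Nr4a1 and Nr4a3) the widest gap between neighbouring values therefore separated the same 4 arrays from the other 8. By group mean, Egr1, Egr2, Egr4 and Nr4a1 ran in the order ethanol, saline, mephedrone, combination. The order was saline, ethanol, mephedrone, combination for Egr3, ethanol, saline, combination, mephedrone for Nr4a3, and combination, mephedrone, saline, ethanol for Nr4a2. Neighbouring groups in these orders overlapped in their arrays, except ethanol and mephedrone for Egr3. The orders rested in part on single arrays. Without combination replicate 3 the combination was above mephedrone by 0.018 in Egr4, and without saline replicate 1 mephedrone was above saline by 0.080 in Egr2.

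The first question was whether mephedrone, given alone or with ethanol, went with a different level of these genes. The mean of the 6 arrays with mephedrone was set against the mean of the 6 without it, here called the mephedrone main effect. The log2 difference was -0.78 ± 0.16 (SE) for Nr4a1, a level 1.72-fold lower, with an adjusted p of 0.0772 (limma, Benjamini-Hochberg over 19938 genes, two-sided). It was -0.64 ± 0.14 for Egr2 (adjusted p = 0.101), -0.27 ± 0.049 for Egr3 (adjusted p = 0.0689) and -0.32 ± 0.078 for Egr1 (adjusted p = 0.117). For the remaining members it was -0.34 ± 0.088 in Egr4 (adjusted p = 0.134), -0.38 ± 0.13 in Nr4a3 (adjusted p = 0.220) and 0.74 ± 0.27 in Nr4a2 (adjusted p = 0.272).

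No member passed the threshold of 0.05 in this comparison (0 of 7), which 23 of all genes did, or 0.115%. At an unadjusted p under 0.05 there were 7 of 7 members, 6 lower and 1 higher, where 4.28% of all genes were lower and 8.36% higher at that level. The median difference over the members was -0.34, against 0.0038 over all genes. Egr3 was the member whose 6 and 6 arrays did not overlap, which held for 0.361% of all genes in the lower direction. These members were named with earlier results of the same arrays known, so their count is a description.

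Single arrays bore on this comparison. Without saline replicate 1 the difference was -0.24 for Egr1, -0.49 for Egr2 and -0.64 for Nr4a1, with adjusted p-values of 0.0631, 0.0902 and 0.112 (limma), and it was -0.25 for Nr4a3. Without ethanol replicate 1, Egr3 passed with an adjusted p of 0.0421 (limma), and 86 of all genes passed in that fit. Without combination replicate 3, the difference in Nr4a2 was 0.51. With array quality weights, which give less influence to noisier arrays, 4 members passed as lower with mephedrone (Egr1, Egr2, Egr3 and Nr4a1), and 356 of all genes passed under the same weights.

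**Figure D2:**
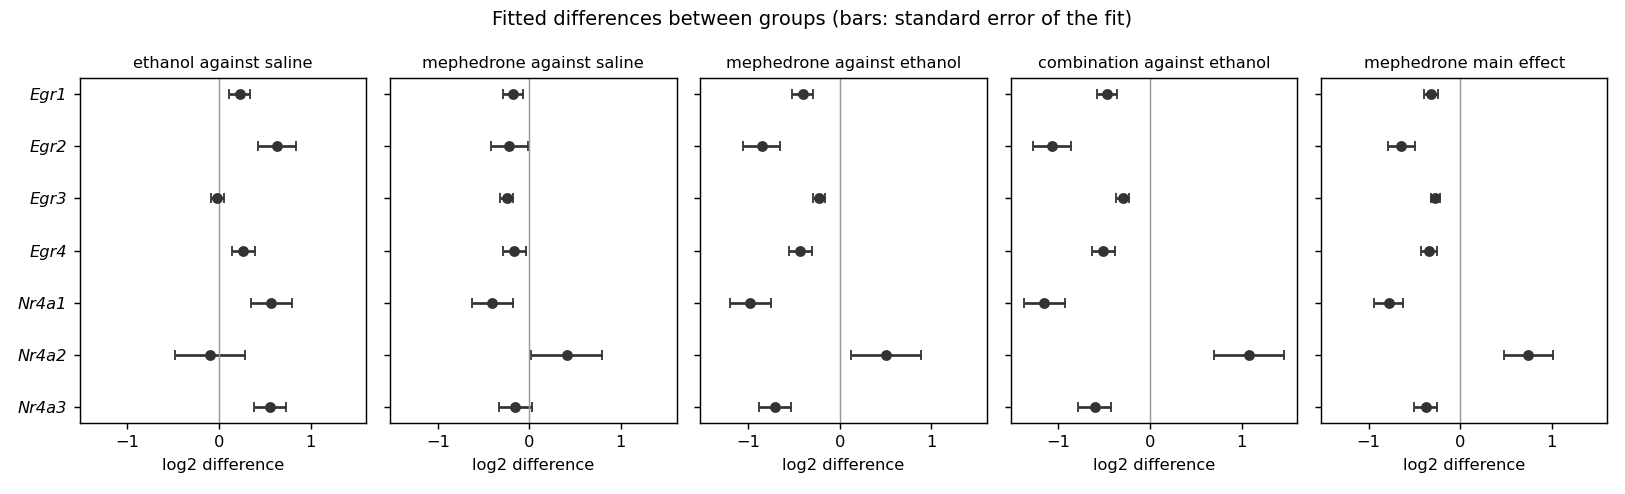
Fitted log2 differences (horizontal axes) of the 7 genes in 5 comparisons, 1 panel each, with bars for the standard error of the limma fit over 12 arrays; the panels share arrays and are not independent. In combination against ethanol, 6 genes lie between -1.16 and -0.30 and Nr4a2 lies at 1.08.

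The next comparison asked what mephedrone added to ethanol. In the combination against ethanol alone, Nr4a1 was 2.23-fold lower (log2 -1.16 ± 0.22 (SE), adjusted p = 0.160, limma) and Egr2 was 2.1-fold lower (log2 -1.07 ± 0.20, adjusted p = 0.160). Nr4a3 differed by -0.60 ± 0.18 (adjusted p = 0.326), Egr4 by -0.51 ± 0.12 (adjusted p = 0.247), Egr1 by -0.47 ± 0.11 (adjusted p = 0.234) and Egr3 by -0.30 ± 0.07 (adjusted p = 0.234). Nr4a2 differed by 1.08 ± 0.38 (adjusted p = 0.404), and by 0.61 without combination replicate 3. None passed (0 of 7), while 5 of all genes did, or 0.0251%.

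At an unadjusted p under 0.05 there were 6 members lower and 1 higher, against 4.41% and 5.31% of all genes. The 3 combination arrays lay below the 3 ethanol arrays without overlap in 6 members, all but Nr4a2, which held for 6.78% of all genes. When saline replicate 1 was left out, Egr1, Egr2 and Nr4a1 passed as lower in the combination, with adjusted p-values of 0.00742, 0.00742 and 0.0360 (limma). In that fit 19 of all 19938 genes passed, 14 of them lower. Saline replicate 1 had stood out in the members' own values, so passes gained by leaving it out are a description. That array is in neither group of this comparison: the differences themselves were the same, and it entered only the shared estimate of spread. With array quality weights Nr4a1 passed, with an adjusted p of 0.0452, and 37 of all genes passed under the same weights.

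Mephedrone alone against ethanol alone shares the ethanol arrays with the comparison above. The log2 difference was -0.97 ± 0.22 (SE) for Nr4a1, -0.85 ± 0.20 for Egr2, -0.71 ± 0.18 for Nr4a3, -0.43 ± 0.12 for Egr4, -0.40 ± 0.11 for Egr1 and -0.23 ± 0.07 for Egr3. Nr4a2 stood at 0.51 ± 0.38, and at 0.20 without ethanol replicate 2 and 0.77 without ethanol replicate 1. Adjusted p-values ran from 0.459 to 0.945 (limma), and 0 of 7 members and 0% of all genes passed. Lower values at an unadjusted p under 0.05 were found in 6 members and in 3.02% of all genes. The arrays did not overlap in the same 6 members, which held for 6.7% of all genes. Without saline replicate 1, Egr1, Egr2 and Nr4a3 passed, each with an adjusted p of 0.0334 (limma), and 11 of all genes passed in that fit. As above, passes gained by leaving out that array are a description.

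Ethanol alone against saline asked for the effect of ethanol by itself. Egr2 was higher with ethanol by 0.63 ± 0.20 (SE), Nr4a1 by 0.57 ± 0.22 and Nr4a3 by 0.55 ± 0.18 on the log2 scale, each with an adjusted p of 0.997 (limma). Egr4 differed by 0.27 ± 0.12, Egr1 by 0.22 ± 0.11, Egr3 by -0.02 ± 0.07 and Nr4a2 by -0.10 ± 0.38. Members that passed were 0 of 7, as were 0% of all genes. Those 3 members were higher at an unadjusted p under 0.05, and so were 4.07% of all genes. Without saline replicate 1 the differences were 0.93 for Egr2, 0.85 for Nr4a1, 0.82 for Nr4a3, 0.43 for Egr4 and 0.39 for Egr1. Without saline replicate 2 Egr4 stood at 0.15 and Egr1 at 0.12. With saline replicate 1 left out, Egr1, Egr2 and Nr4a3 had an adjusted p of 0.0829.

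Mephedrone alone and the combination were each also set against saline, and both share the saline arrays with the comparison above. Mephedrone alone differed from saline by -0.40 ± 0.22 (SE) in Nr4a1 and by -0.25 ± 0.07 in Egr3, and by 0.41 ± 0.38 in Nr4a2. It differed by -0.18 ± 0.11 in Egr1, -0.22 ± 0.20 in Egr2, -0.17 ± 0.12 in Egr4 and -0.15 ± 0.18 in Nr4a3. Without saline replicate 1 these 4 differences were -0.011, 0.080, -0.00088 and 0.11. Without saline replicate 2 they were -0.28, -0.37, -0.28 and -0.30. For Nr4a1 the value without saline replicate 1 was -0.13. For Nr4a2 it was 0.17 without saline replicate 1 and 0.27 without mephedrone replicate 2. No member and 0% of all genes passed (limma), and Egr3 was the member lower at an unadjusted p under 0.05, as were 1.51% of all genes. The arrays of Egr3 did not overlap, as in 4.74% of all genes.

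The combination differed from saline by -0.58 ± 0.22 (SE) in Nr4a1, -0.32 ± 0.07 in Egr3, -0.24 ± 0.11 in Egr1 and 0.98 ± 0.38 in Nr4a2. The 7 members had adjusted p-values from 0.128 to 0.944 (limma), so that 0 of 7 passed, where 0.01% of all genes did. At an unadjusted p under 0.05, 3 were lower (Egr1, Egr3 and Nr4a1), as were 3.26% of all genes, and Nr4a2 was higher, as were 8.88%. Arrays did not overlap in Egr3 and Nr4a1 on the lower side (5.77% of all genes) and in Nr4a2 on the higher side (11.7% of all genes). Without combination replicate 3 the difference in Nr4a2 was 0.51, and without saline replicate 1 that in Nr4a1 was -0.31 and that in Egr1 -0.072.

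Whether ethanol acted differently in the presence of mephedrone was tested as an interaction, the ethanol difference with mephedrone minus that without it. It was -0.85 ± 0.29 (SE) for Egr2, -0.75 ± 0.32 for Nr4a1, -0.45 ± 0.25 for Nr4a3 and -0.34 ± 0.18 for Egr4 on the log2 scale. The adjusted p was 1.00 for every member (limma), and 0 of 7 members and 0% of all genes passed. Egr2 and Nr4a1 were below 0 at an unadjusted p under 0.05, as were 2.4% of all genes. Without saline replicate 1 the interaction of Egr2 was -1.15, with an adjusted p of 0.287, and that of Nr4a3 was -0.71. Without saline replicate 2 that of Egr4 was -0.23.

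The combination against mephedrone alone gave differences from -0.22 ± 0.20 (SE) in Egr2 to 0.57 ± 0.38 in Nr4a2. Without combination replicate 3 these values were -0.079 and 0.10, and without combination replicate 1 Nr4a2 stood at 0.88. There 0 of 7 members passed, 0 had an unadjusted p under 0.05, and 0% of all genes passed (limma). In the mean of both ethanol groups against both others, Nr4a3 differed by 0.33 ± 0.13 and was the member higher at an unadjusted p under 0.05, as were 3.44% of all genes, and 0 of 7 members and 0% of all genes passed. The test for any difference among the 4 groups passed for 0 of 7 members and for 0.00502% of all genes. At an unadjusted p under 0.05 it held for 6 members, all but Nr4a2, and for 1664 of all 19938 genes. Without saline replicate 1 it passed for Egr1 (adjusted p = 0.0247) and Egr2 (adjusted p = 0.0266), and for 6 of all genes. That array had stood out in the members' own values, so these passes too are a description.

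**Figure D3:**
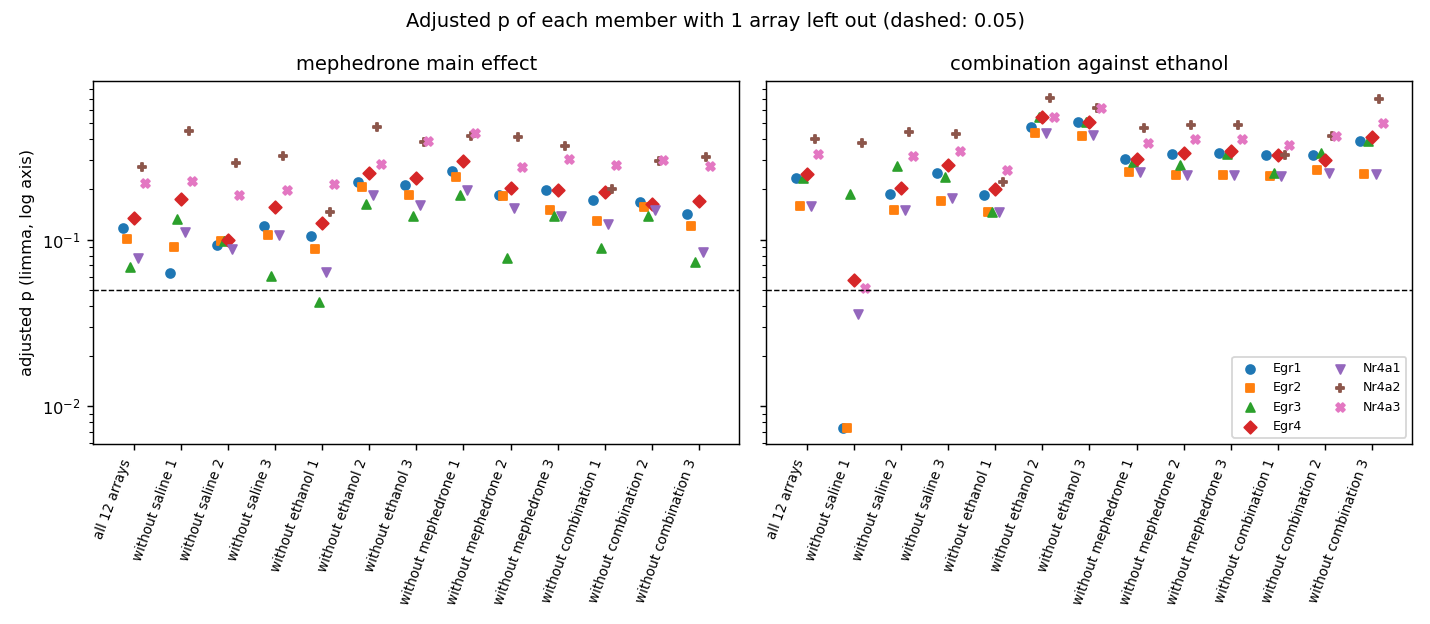
Adjusted p of each member (vertical log axis; marker shapes are genes) with all 12 arrays and with each array left out in turn (horizontal axis), for the mephedrone main effect on the left and the combination against ethanol on the right; the dashed line is 0.05. Egr3 without ethanol replicate 1 lies under the line on the left, and Egr1, Egr2 and Nr4a1 without saline replicate 1 lie under it on the right.

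Among the 8 arrays that were not high, 4 pairs of Egr1, Egr2, Egr4 and Nr4a1 passed by Pearson's r and 0 by Spearman's rho. Combination replicate 3, which stood apart in marker genes of other tissue, was the lowest array in each of these genes. It had -0.17 in Egr1, -0.42 in Egr2, -0.35 in Egr4 and -0.66 in Nr4a1. Over all 12 arrays the values fall into separate clusters, so correlations were taken within the 8 arrays below the shared gap, for 21 pairs with exact two-sided permutation tests. After adjustment over the 21 pairs, 4 pairs passed for Pearson's r and 0 for Spearman's rho, and 7 had an unadjusted p under 0.05 for r. Egr1 and Egr4 had r = 0.95 and rho = 0.83 (exact p = 0.00198 and 0.0154, adjusted p = 0.0139 and 0.161), and r = 0.91 without the 2 arrays farthest from the median. Egr2 and Nr4a1 had r = 0.91 and rho = 0.76 (exact p = 0.00124 and 0.0368, adjusted p = 0.013 and 0.193), and r = 0.66 without the 2 farthest arrays.

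Egr4 and Nr4a1 had r = 0.90 and rho = 0.79 (exact p = 0.00531 and 0.0279, adjusted p = 0.0279 and 0.193), and r = 0.59 without the 2 farthest arrays. Egr2 and Egr4 had r = 0.86 and rho = 0.86 (exact p = 0.000471 and 0.0107, adjusted p = 0.0099 and 0.161), and r = 0.73 without them. Nr4a3 had r = 0.0099 with Egr1, 0.069 with Egr2, -0.0065 with Nr4a1 and -0.25 with Egr3. Nr4a2 gave r from -0.84 to 0.31 with the 6 other members. Its value with Egr2, r = -0.84 (exact p = 0.0571, adjusted p = 0.15), became 0.26 without the 2 farthest arrays, so that relation rested on them. These 8 arrays come from 3 groups, 2 saline, 3 mephedrone and 3 combination, and share their processing. They were picked by the members' own values, and the permutations did not keep the groups apart. Differences between groups and single arrays therefore enter these correlations, which are a description.

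The genes most alike to each member over the 12 arrays were taken by Pearson's r, as a description of arrays that share groups and normalisation. Fosl2, an AP-1 factor, came first for Egr1 (r = 0.99), Egr2 (r = 0.97) and Egr4 (r = 0.99), and second for Nr4a1 (r = 0.96). Fosl2 stood at 0.61, -0.13 and 0.045 in the saline arrays and at 0.52, 0.51 and 0.43 in the ethanol arrays. It stood at -0.17, -0.026 and 0.026 in the mephedrone arrays and at -0.13, -0.06 and -0.28 in the combination arrays. Saline replicate 1 and the ethanol arrays were thus its high arrays too.

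Other genes named for these members were Pdp1, a phosphatase of pyruvate dehydrogenase (r = 0.98 with Egr1 and 0.95 with Nr4a1), and Nr2f6, an orphan nuclear receptor (r = 0.95 with Egr1 and with Egr2). Zbtb17, a zinc finger factor that binds Myc, was named for Egr2 (r = 0.96). Gpr3, a receptor that raises cyclic AMP, came first for Nr4a1 (r = 0.96) and was also named for Egr4 (r = 0.95), with the phosphatase Dusp14 (r = 0.95). Nr4a3 was most like Midn (r = 0.96), the ERK inhibitor Spry4 (r = 0.95) and the cochaperone Dnajb5 (r = 0.93).

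Egr3 and Nr4a2 had other neighbours. Egr3 was most like Smarcd1, a chromatin remodelling subunit (r = 0.95), Gm9725 (r = 0.93) and Jph3, a junctophilin of neurons (r = 0.93). Smarcd1 ranged only from -0.094 to 0.033, a span far smaller than that of Egr3. Nr4a2 was most like Stmn1, a microtubule regulator of growing neurons (r = 0.98), Macir (r = 0.97) and the acyl-CoA synthetase Acsl5 (r = 0.96). Stmn1 was lowest in ethanol replicate 2 at -0.40 and saline replicate 1 at -0.34, and highest in combination replicate 3 at 0.56, the same arrays as for Nr4a2.

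**Figure D4:**
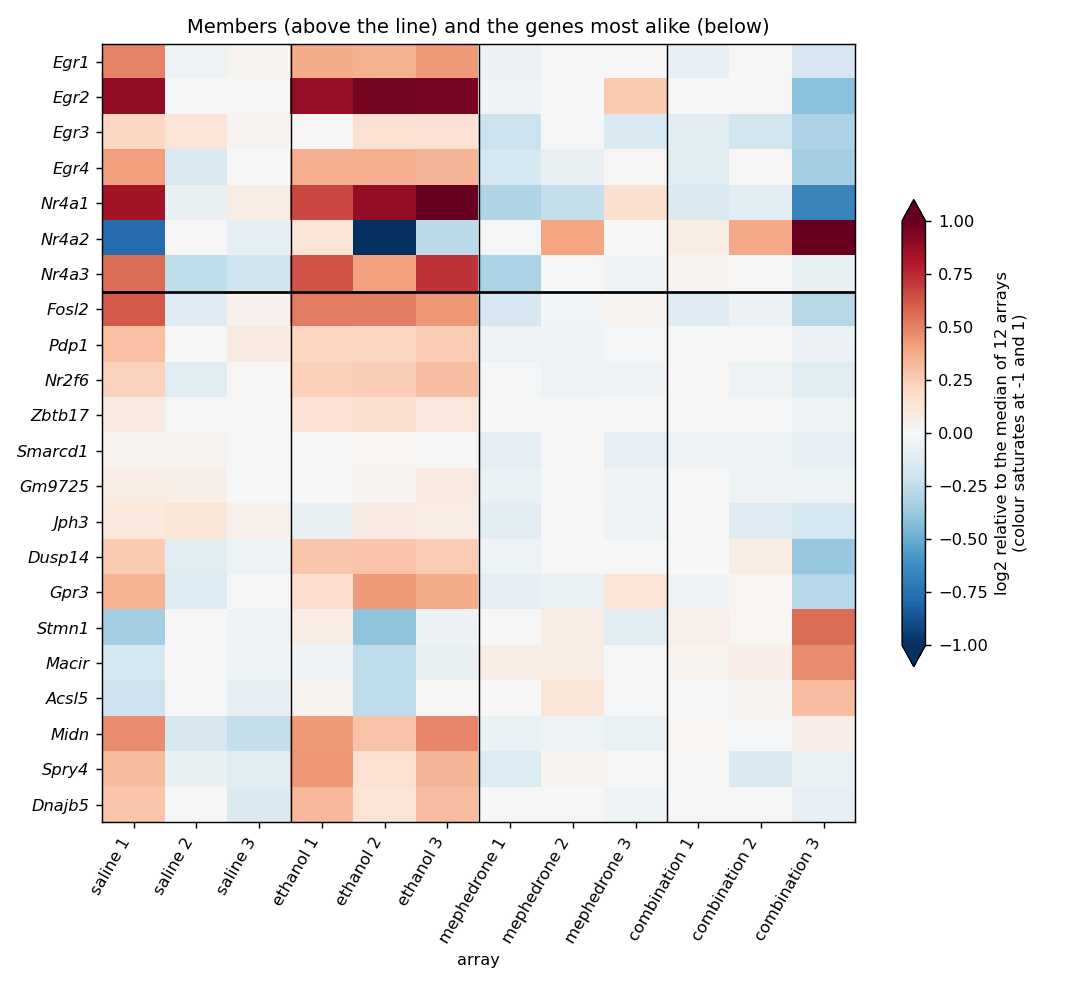
Log2 value relative to the median of 12 arrays, in colour, for the 7 members (rows above the line) and the genes most alike to them (rows below) in each array (columns, grouped by treatment); colour saturates at -1 and 1. Saline replicate 1 resembles the ethanol arrays in most rows, and the rows of Stmn1, Macir and Acsl5 share the low and high arrays of Nr4a2.

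Transcripts of proteins that act with the members were examined next. Of 5 partners, 4 were below 0 in the mephedrone main effect, 0 passed, and the median was -0.043 (limma). Nab2, a corepressor of Egr proteins and itself an Egr target, differed by -0.12 ± 0.056 (SE), and Rxrg, a retinoid X receptor that pairs with Nr4a proteins, by -0.30 ± 0.14. Of 20 factors that act on the promoters of the members, such as SRF, CREB and their coactivators, 18 were measured and 0 passed, with 1 higher and 4 lower at an unadjusted p under 0.05 and a median of -0.027, where 8.36% and 4.28% of all genes were so. Crtc1, a CREB coactivator, differed by -0.12 ± 0.031 and Srf by -0.16 ± 0.053.

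Other immediate early genes were examined in the same comparison, in which 4.28% of all genes were lower and 8.36% higher at an unadjusted p under 0.05. Of 25 other transcription regulators, all measured, 0 passed in the mephedrone main effect, 7 were lower and 2 higher at an unadjusted p under 0.05, and the median was -0.019 (limma). Fosl2 differed by -0.44 ± 0.10 (SE, adjusted p = 0.111) and Bhlhe40, a repressor of the clock, by 0.26 ± 0.072 (adjusted p = 0.152). Of 24 effectors 23 were measured and 0 passed, with 7 lower and 2 higher at an unadjusted p under 0.05 and a median of -0.030. In both lists the count of higher genes was near the share of all genes. Vgf, a neuropeptide precursor, differed by -0.39 ± 0.076 (adjusted p = 0.0751) and Dusp6, an ERK phosphatase, by -0.18 ± 0.04 (adjusted p = 0.0937).

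Genes known as targets of the members gave mixed values. Of 8 textbook targets of Egr proteins, 4 were below 0 and 4 above it, 0 passed, 2 were lower at an unadjusted p under 0.05, as were 4.28% of all genes, and the median was 0.0037 (limma). The 2 were Arc, a synaptic effector and an immediate early gene itself, at -0.53 ± 0.12 (SE, adjusted p = 0.101), and Nab2. Of 9 genes of dopamine neurons, some of them Nr4a2 targets, 0 passed, 4 were below 0 and 5 above it, from -0.11 to 0.25, and the median was 0.011. Ddc, the enzyme that makes dopamine from L-DOPA, differed by 0.17 ± 0.061 (adjusted p = 0.261) and Th, the rate-limiting enzyme of dopamine synthesis, by 0.25 ± 0.14 (adjusted p = 0.517).

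Markers of other cells that express Nr4a2 were set beside it. Of 10 markers of claustrum and deep cortical layer neurons 9 were measured, and 8 of the 9 lay above 0 in that same comparison; 0 passed, and their median was 0.16 (limma). Synpr differed by 0.11 ± 0.035 (SE, adjusted p = 0.197) and Gnb4 by 0.17 ± 0.06 (adjusted p = 0.240). The list was not uniform: Tle4, named after its value was seen, differed by -0.16 ± 0.067. The list mean lay between -0.11 and -0.034 in the saline arrays, -0.12 and 0.0027 in the ethanol arrays, 0.00031 and 0.022 in the mephedrone arrays and 0.030 and 0.31 in the combination arrays. It was highest in combination replicate 3 and lowest in ethanol replicate 2, which were also the highest and the lowest array of Nr4a2. Saline replicate 1, with the next lowest Nr4a2 value, had a list mean of -0.034, above the -0.11 of saline replicate 3.

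Cortical excitatory markers, of which 9 of 10 were measured, had 8 above 0, a median of 0.094 and 0 passed. Tbr1 differed by 0.51 ± 0.37 (SE, adjusted p = 0.637, limma) and Neurod6 by 0.31 ± 0.28 (adjusted p = 0.723). Their list mean was 0.64 in combination replicate 3, -0.30 in saline replicate 1 and -0.38 in ethanol replicate 2. Saline replicate 2 and mephedrone replicate 2 also had list means of 0.31 and 0.32, where Nr4a2 was 0.0019 and 0.40. The part of these cells in the Nr4a2 values was not tested.

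**Figure D5:**
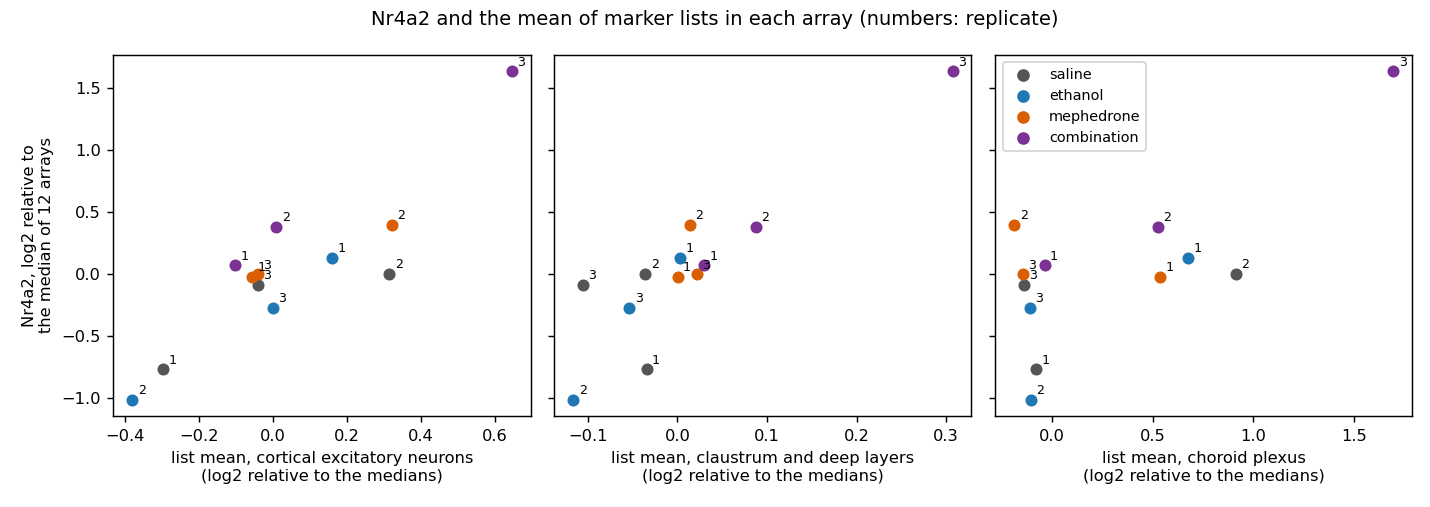
Nr4a2 (vertical axis, log2 relative to the median of 12 arrays) against the mean of 3 marker lists in the same array (horizontal axes, log2; scales differ), with points coloured by group and numbered by replicate. Combination replicate 3 is the highest array on both axes of each panel, and ethanol replicate 2 is the lowest for the cortical list and for the claustrum and deep layer list.

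The remaining marker lists were set beside the members in the same comparison. Choroid plexus markers were all above 0 (9 of 9 measured, of 10), with a median of 0.18, and microglial markers all below it (8 of 8), with a median of -0.090, and 0 passed in either list (limma). The choroid plexus list mean was 1.70 in combination replicate 3. It lay from -0.14 to 0.91 in the saline arrays, -0.11 to 0.68 in the ethanol arrays and -0.19 to 0.54 in the mephedrone arrays. In mephedrone alone against ethanol alone, all 9 choroid plexus markers lay below 0. Of the endothelial markers 7 of 8 were measured, and Cldn5, a tight junction protein, fell by 0.30 with an adjusted p of 0.0333. Medians were -0.082 for that list, 0.0013 for oligodendrocytes (7 of 8 measured), 0.033 for astrocytes (6 of 6) and -0.050 for striatal projection neurons (8 of 10), and 0 other genes of these lists passed. The microglial list mean lay from 0.037 to 0.11 in the ethanol arrays and from -0.094 to 0.0082 in the combination arrays, the groups between which Nr4a1 and Egr2 differed most. The part of these cells in the values of the members was not tested.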

How the data were processed

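Total RNA from the anterior striata was amplified, labelled with biotin and hybridised to whole-transcript Affymetrix arrays, per the labels' protocols. The deposited table gives log2 values for 28853 probe sets on 12 arrays, made by the authors with RMA and build mm8 per the submitters' processing notes, and GeneSpring GX 7.3.1 is the analysis software given in the series design text. The centring of each probe set on its median is not described there and was found from the values, whose row medians are 0 within 7.02e-07. The rounding steps of the values gave a level from 8 to 16 before centring for 13412 probe sets. Signal over background is not given in the sources used here.

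Of the probe sets, 21789 had 1 symbol in the platform annotation, 1621 had several and 5443 were not listed. Values were averaged per gene with no new normalisation. Group means were fitted with limma 3.58.1 in R 4.3.3 (lmFit, eBayes) to all 12 arrays, with two-sided tests, Benjamini-Hochberg adjustment over 19938 genes and a threshold of 0.05. Errors beside differences are standard errors of that fit. The script was tested on simulated data. The members and the 14 gene lists were chosen with earlier results of these data known. The genes named are all 7 members, per list those that passed or else the 2 with the smallest unadjusted p in the mephedrone main effect, and the 3 genes with the highest r per member, while Arc, Nab2 and Fosl2 stand under each rule that named them. Correlations of members had been planned over 12 arrays and are given within 8, because the arrays fall into clusters. Alternatives were probe sets in place of genes, leaving out arrays, the replicate number as a block, array weights, quantile normalisation, robust eBayes, a filter on dim probe sets and fits to the compared groups only. Promoter sequences are those of RefSeq.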

Additional observations from a re-analysis of the deposited data

How the results depend on the processing

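No member passed in any of the 10 tests of the main fit, made to all 12 arrays without weights, and 20 other settings were tried. Of 1239 values of single members under these settings, 1211 kept direction and side of the threshold, 13 newly passed, 0 lost a pass and 15 changed sign. Since no member had passed in the main fit, no pass could be lost, and keeping the side meant staying short of the threshold. In the mephedrone main effect, leaving out 1 array gave 0 to 1 members past the threshold, array quality weights gave 4, and leaving out combination replicate 3 and ethanol replicate 1 together gave 1 (Egr3). In the combination against ethanol, leaving out 1 array gave 0 to 3 and the weights gave 1. Leaving out 1 array gave 0 to 3 members in mephedrone against ethanol and 0 to 2 in the test for any difference. Across all genes, the mephedrone main effect had 23 calls, 356 with the weights, 213 without those 2 arrays together, 68 of 28853 probe sets taken singly, 10 after quantile normalisation, and 2 to 86 with 1 array left out.

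The titles number the replicates alike in each group, but same-numbered arrays deviated together in only 7 of 18 pairs (r above 0.1, range -0.28 to 0.43), so the numbers were not taken as pairs. With the replicate block 0 members passed in any comparison, and 6 genes passed in place of 23 in the mephedrone main effect and 1 in place of 5 in the combination against ethanol.

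None of the values that changed sign had passed. With 1 array left out, Egr3 in ethanol against saline ranged from -0.066 to 0.026 (above 0 without saline replicate 1, 0.022, or ethanol replicate 1), and was 0.026 without ethanol replicate 1 and combination replicate 3 together and 0.016 with array weights. Egr3 ranged in the interaction from -0.0996 to 0.0044, above 0 without mephedrone replicate 2 or combination replicate 3 (0.00065), and was 0.0033 in the ethanol main effect without both arrays, where Nr4a2 was -0.13. Nr4a2 in ethanol against saline ranged from -0.36 to 0.21, above 0 without saline replicate 2 (0.040) or ethanol replicate 2. Without saline replicate 1 the sign changed in mephedrone against saline for Egr2 (range -0.37 to 0.080) and Nr4a3 (-0.30 to 0.11), and in the combination against saline for Nr4a3 (-0.19 to 0.21). Egr4 in the combination against mephedrone ranged from -0.16 to 0.018, above 0 without combination replicate 3, and was 0.018 without both arrays. The cause was not tested. With 3 arrays per group and centred values, neither small differences nor signal over background can be resolved.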
